A study of Mus musculus with 28 samples.

Results

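The early transcriptional response of Sle1b.BACSlamf6-H1 CD4+ T cells to ligation of the T cell receptor was described from 6 arrays out of the 28 of the series. They are all 3 arrays of that strain titled as unstimulated and all 3 titled as stimulated with anti-CD3 for 4 h, and each of 17097 genes was compared between them. Splenic CD4+ T cells, taken as a whole population, came from females aged 12 weeks and were incubated in complete RPMI medium. In the stimulated group they lay on plate-bound antibody to CD3 at 0.1 µg/ml, with no other stimulus named. Both groups share the genotype, that of B6.Sle1b carrying in addition an artificial chromosome of bacterial origin (BAC), named for the H1 form of Slamf6. B6.Sle1b is a congenic line named for Sle1b, a lupus-associated interval on mouse chromosome 1 that holds genes of the SLAM receptor family. The sources used here do not give the copy number of the BAC or its other genes, and do not say how long the unstimulated cells had been in culture. The same comparison in C57BL/6 and in B6.Sle1b (6 arrays each) and the 3 arrays of Sle1b.BACSlamf6-H1 at 24 h served for comparison.

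As background, the T cell receptor signals through its CD3 chains to calcium and calcineurin, which release NFAT, to the MAP kinases, which induce immediate early factors such as EGR1, and to NF-kappaB. Within hours these factors turn on cytokines, chemokines and surface receptors, while genes that keep a resting T cell small and circulating are switched off. Cytokines released into the well act back on the cells through STAT factors. SLAM family receptors, among them SLAMF6 (Ly108), bind each other between lymphocytes and signal through the adaptor SAP, which Sh2d1a encodes.

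Values are log2 of the deposited intensities, so that a difference of 1 is a 2-fold change. Background, read from non-specific controls on each of the 6 arrays, lay between 2.76 and 3.03. The second 4 h array had the lowest 75th percentile of intensity of the 6, at 34.2 against 43.3 to 51.3 on the others. Its median intensity was the highest of the 6, at 10.5 against 9.19 to 9.58, and so was its background. It is called the dim array below, a name that refers to its bright values alone. The control probe set for the 5′ part of 18S ribosomal RNA lay between 6.99 and 7.87 on the unstimulated arrays and between 8.81 and 9.83 at 4 h. The 3′ to 5′ difference of the Gapdh controls overlapped between the groups, from 0.34 to 0.64 and from 0.48 to 0.57. The part of array brightness and of the 18S signal in the results below was not tested, and results that moved without the dim array are given both ways. In samples of this kind, fewer cells of a type and less RNA per cell cannot be told apart.

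At 4 h, 722 genes (4.22% of those tested) were called higher and 1086 (6.35%) lower than in unstimulated cells, 1808 in all (10.6%), at an adjusted p under 0.05 in limma. Of these, 716 and 1081 had no overlap between the 3 and the 3 arrays (4.19% and 6.32% of all genes), against 2165 (12.7%) and 2668 (15.6%) without regard to the test. At least 2-fold changes were fewer, 211 higher (1.23%) and 422 lower (2.47%). The rises reached further than the falls. The chemokine Ccl3 rose 32.3-fold, whereas Tdrp, the largest fall, was 9.61-fold lower. The median difference over all genes was 0.04. Counts of called members in the gene lists below are to be read beside the 4.22% higher and 6.35% lower of all genes.

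**Figure D1:**
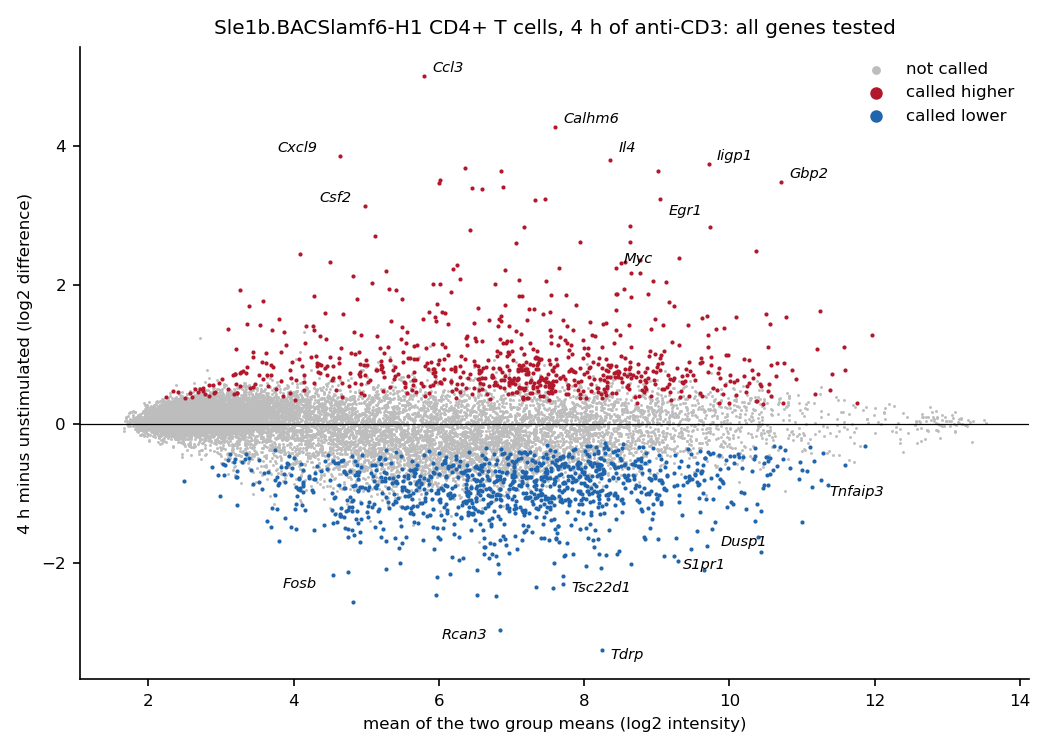
The log2 difference between 4 h and unstimulated Sle1b.BACSlamf6-H1 cells (vertical axis) is plotted against the mean of both groups in log2 intensity (horizontal axis) for each of the 17097 genes, with genes called higher in red (722), called lower in blue (1086) and not called in grey. The largest rises (Ccl3, Calhm6, Cxcl9, Il4, Iigp1) reached beyond any fall.

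The number of lower genes rested in part on the dim array. Without the second 4 h array 629 genes were called higher and 525 lower, and without the first 4 h array 733 and 1528. Leaving out the first or the second unstimulated array gave 480 higher and 627 lower in either case. Without the third unstimulated array the counts were 607 and 859, and without the third 4 h array 511 and 748. Of the called genes, 387 of the 722 higher and 466 of the 1086 lower kept their call whichever of the 6 arrays was left out.

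**Figure D2:**
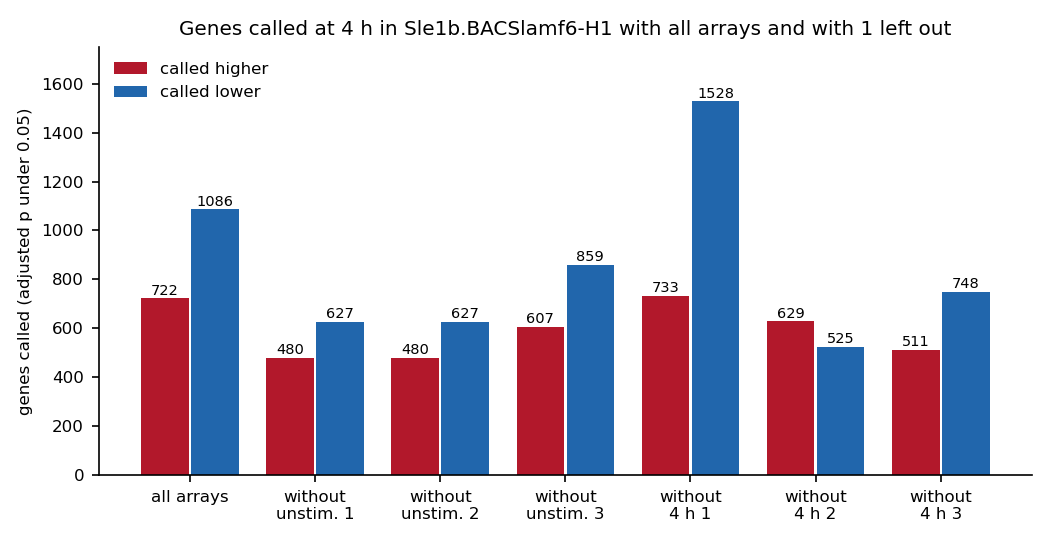
Bars give the number of genes called higher (red) and lower (blue) at 4 h in Sle1b.BACSlamf6-H1 with all arrays and with each of the 6 arrays left out in turn. The lower count ran from 525 without the second 4 h array to 1528 without the first, while the higher count ran from 480 to 733.

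Of the 15 largest rises 4 were of secreted ligands (Ccl3, Cxcl9, Il4 and Ccl4). Of 24 measured T cell cytokines and TNF family ligands, 13 rose and 1 fell, with a median difference of 0.98 against 0.04 over all genes. Of 15 chemokine ligands, 6 rose and none fell, with a median of 0.62. Ccl3, a chemokine for monocytes and effector T cells, read 3.70, 2.95 and 3.21 on the unstimulated arrays and 8.86, 8.07 and 7.97 at 4 h, a difference of 5.01 (SE 0.41, adjusted p = 3.06e-08). Its neighbour in function Ccl4 went from 5.53, 4.53 and 5.06 to 9.07, 8.58 and 8.39, a rise of 3.64 (SE 0.31, adjusted p = 5.44e-08). Cxcl9, a ligand of CXCR3 that interferon gamma induces, lay at background in unstimulated cells (2.93, 2.40 and 2.79) and at 6.37, 6.11 and 7.22 at 4 h. Its rise was at least 12.7-fold (adjusted p = 1.08e-06). No 4 h array of these 3 genes came near an unstimulated one.

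Xcl1, a chemokine for cross-presenting dendritic cells, rose by 1.87 from an already visible level, from 7.60, 7.41 and 7.54 to 9.44, 9.61 and 9.09 (adjusted p = 0.000307). Ccl1 and Ccl17, ligands of the type 2 homing receptors CCR8 and CCR4, rose by 1.35 and 1.27 (adjusted p = 0.00405 and 0.0164). With array weights Ccl1 had an adjusted p of 0.0528. The Ccl17 call was lost without the second unstimulated or the third 4 h array, with an adjusted p of up to 0.0969. Ccl22, the other CCR4 ligand, read 3.03, 3.44 and 3.15 and then 3.58, 3.54 and 3.79, which did not pass (0.43, adjusted p = 0.149). At 24 h it stood at 9.02, 8.67 and 8.70. Ccl5, highly expressed in resting memory cells, showed overlapping groups (11.30, 10.45 and 10.54 against 10.99, 9.62 and 9.93).

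Among the cytokines Il4, which drives type 2 helper cells, rose most. It read 6.70, 6.46 and 6.21 in unstimulated cells and 10.61, 10.39 and 9.78 at 4 h, a 13.9-fold rise (3.80, SE 0.27, adjusted p = 3.88e-09). Csf2, encoding GM-CSF, went from 3.23, 3.53 and 3.49 to 6.76, 6.07 and 6.82 (3.13, adjusted p = 2.7e-07). Tnf rose from 5.14, 5.0 and 5.10 to 7.71, 7.21 and 7.01 (2.23, adjusted p = 5.23e-05). Effector cytokines of different helper types thus rose side by side. Il17a of type 17 cells went from 3.68, 3.77 and 3.82 to 6.42, 5.56 and 5.68 (2.13, adjusted p = 2.85e-05). Ifng of type 1 cells went from 6.67, 6.06 and 5.93 to 8.47, 7.76 and 7.94 (1.84, adjusted p = 0.000234).

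The growth factor Il2 rose by 1.93, from 4.83, 4.46 and 4.06 to 6.94, 5.95 and 6.24 (adjusted p = 0.00105), and Lif, a cytokine of the IL-6 family, by 2.02 (adjusted p = 0.000317). Among TNF family ligands, Lta (lymphotoxin alpha) rose by 1.61, Tnfsf11 (RANKL) by 1.58, Tnfsf8 (CD30 ligand) by 1.33 and Tnfsf10 (TRAIL) by 1.27, with adjusted p from 5.66e-06 to 0.00075. Smaller rises of Tnfsf14 (0.73) and Csf1 (0.67) had an adjusted p of 0.0268 and 0.00833. Tnfsf14 lost its call without any unstimulated array or without the second or the third 4 h array, and Csf1 without the first unstimulated or the third 4 h array, with an adjusted p of up to 0.166 and 0.0623. Il10, the anti-inflammatory cytokine, was the 1 member that fell, from 5.88, 5.71 and 5.79 to 4.97, 4.26 and 4.99 (adjusted p = 0.0227). That call was lost without any 1 of the unstimulated arrays or the second 4 h array, with an adjusted p of up to 0.156. Il3 lay at background in unstimulated cells, spread widely at 4 h (2.98, 2.24 and 4.75, the second of them under the background of its array) and did not pass (adjusted p = 0.14).

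The cytokine promoters are shown because NFAT is the factor that calcium signalling releases in these cells. Of the 22 cytokine and ligand genes with a promoter in the RefSeq table (assembly GRCm38.p6), 11 hold the NFAT core TGGAAA on either strand within the 250 bases before the start, against 19.0% of 13605 promoters of genes tested. The core was also in 6 of 13 promoters of the interferon gamma list and in 4 of 10 of the chemokine ligands. Among genes that rose at least 2-fold the share was 22.2% (38 of 171). Of the cytokine list, Il3, Il5, Il6, Il13 and Il21 hold the core and were not called at 4 h. Ifng, Il17a, Lif, Lta and Csf1 rose and have no core in these 250 bases. Windows on the strand of the gene, with the core or its reverse complement in capitals, follow for 4 cytokines that rose. They lie at chr3:37125974-37126023 (Il2, minus strand), chr11:53618715-53618764 (Il4, minus), chr17:35202161-35202210 (Tnf, minus) and chr11:54250073-54250122 (Csf2, minus), upstream of the transcribed part.
Il2: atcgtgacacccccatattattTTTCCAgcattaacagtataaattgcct
Il4: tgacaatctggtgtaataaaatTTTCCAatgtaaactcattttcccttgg
Tnf: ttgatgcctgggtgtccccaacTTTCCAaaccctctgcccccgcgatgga
Csf2: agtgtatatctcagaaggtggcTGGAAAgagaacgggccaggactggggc
A match of these letters is a description of the window and not a measured site.

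Genes of the interferon gamma response rose as a group. Of 16 measured members 13 rose and none fell, and their median difference of 1.24 was the highest of the 36 lists. The 13 calls were also made without the dim array, and 12 were kept whichever array was left out, the exception being Irgm2. Gbp2, a guanylate-binding protein that attacks vacuoles of intracellular pathogens, read 9.25, 8.78 and 8.86 in unstimulated cells and 12.46, 12.38 and 12.49 at 4 h (3.48, SE 0.16, adjusted p = 5.49e-12). Iigp1, an immunity-related GTPase, went from 8.32, 7.97 and 7.25 to 11.56, 11.51 and 11.68 (3.74, adjusted p = 4.21e-10). For both genes the 3 arrays at 4 h lay closer together than the unstimulated ones, and all of them above.

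Socs1, which shuts off JAK and STAT signalling, rose by 3.39, from 5.15, 4.69 and 4.42 to 8.55, 7.70 and 8.20 (adjusted p = 6.92e-09). Cd274, encoding the inhibitory ligand PD-L1, rose by 2.17 from 7.99, 7.65 and 7.06 to 9.85, 9.51 and 9.83 (adjusted p = 1.94e-06). Further GTPases followed with smaller rises, Gbp3 by 1.75, Irgm1 by 1.55, Igtp by 1.07 and Irgm2 by 0.97. The Irgm2 call had an adjusted p of 0.00711 and of 0.0528 without the third unstimulated array. The immunoproteasome subunits Psmb9, Psmb10 and Psmb8, which trim peptides for MHC class I, rose by 1.42, 1.05 and 0.85. For Psmb9 the values went from 8.49, 8.41 and 8.23 to 9.78, 9.80 and 9.81 (adjusted p = 9.66e-08), whereas a second probe set of similar brightness gave 0.58 (adjusted p = 0.14) and the mean of its 3 probe sets 0.71. The transcription factor Irf1 rose by 0.85 (adjusted p = 0.00357). Outside the list and named after its values were seen, Gbp7 rose by 2.83, and Gbp10, among the largest rises, by 3.65 (adjusted p = 3.23e-10). Guanylate-binding and immunity-related GTPase genes have close paralogs, and probe sets may share signal between them.

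The interferon-stimulated response element (ISRE, here GAAA, any 2 bases and GAAA) was searched on either strand in the same 250 bases, a motif added after the rise of these genes had been seen. An ISRE was present in 7 of the 13 members with a promoter in the table (53.8%), against 3.09% of all promoters, 15.2% of those of genes that rose at least 2-fold and 1.49% of those that fell at least 2-fold. It was also in 5 of 12 promoters of the type I interferon list (41.7%), so it is not particular to the interferon gamma list. Of the holders in the type I list, Ifit3 and Stat2 were called higher at 4 h and the others were not called. Cxcl10, a holder in the interferon gamma list, was not called either. The elements of 5 genes that rose are shown in capitals, on the strand of the gene. They lie at chr3:142620582-142620635 (Gbp2, plus strand), chr3:142559983-142560036 (Gbp3, plus), chr3:142530261-142530314 (Gbp7, plus), chr11:58199500-58199553 (Igtp, plus) and chr11:48871421-48871466 (Irgm1, minus).
Gbp2: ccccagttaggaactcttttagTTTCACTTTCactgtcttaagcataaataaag
Gbp3: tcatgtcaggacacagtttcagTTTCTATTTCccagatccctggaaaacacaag
Gbp7: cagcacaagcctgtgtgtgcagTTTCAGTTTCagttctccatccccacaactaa
Igtp: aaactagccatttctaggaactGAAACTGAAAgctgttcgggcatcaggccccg
Irgm1: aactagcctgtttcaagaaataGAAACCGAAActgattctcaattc
The elements of Gbp2, Gbp3 and Gbp7, which lie close together on chromosome 3, start 59, 39 and 53 bases before the gene and read on the other strand, and those of Igtp and Irgm1 start 34 and 24 bases before it.

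Of 16 genes of the type I interferon response 7 rose and none fell (median 0.60). The enzyme Usp18, which removes ISG15 and dampens interferon receptors, read 6.20, 5.83 and 5.12 and then 8.98, 8.83 and 9.0 (3.22, adjusted p = 1.25e-06). Oas2, a sensor of double-stranded RNA, rose by 2.71 from 3.72, 3.86 and 3.70 to 6.84, 5.65 and 6.92 (adjusted p = 8.1e-07). Stat2 and Irf7, factors of that pathway, rose by 1.51 and 1.01 (adjusted p = 0.00147 and 0.00422). The other 3 calls depended on single arrays. Ifit3, Oasl2 and Ifit2 rose by 2.05, 1.5 and 1.24, and their unstimulated arrays spread widely, as in Ifit3 with 7.43, 6.40 and 5.51. Each lost its call without the second or the third unstimulated array or the third 4 h array, Ifit3 and Ifit2 also without the second 4 h array, and Oasl2 and Ifit2 also without the first 4 h array. Their adjusted p then reached up to 0.156. Without the dim array 5 of the 16 were called. Ifih1, a cytosolic sensor of the same list, did not pass, with 9.51, 8.68 and 7.69 against 8.86, 7.65 and 7.59. Stat2 holds an ISRE 222 bases before its start (chr10:128270254-128270307, plus strand).
Stat2: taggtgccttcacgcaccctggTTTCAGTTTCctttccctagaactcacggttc

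**Figure D3:**
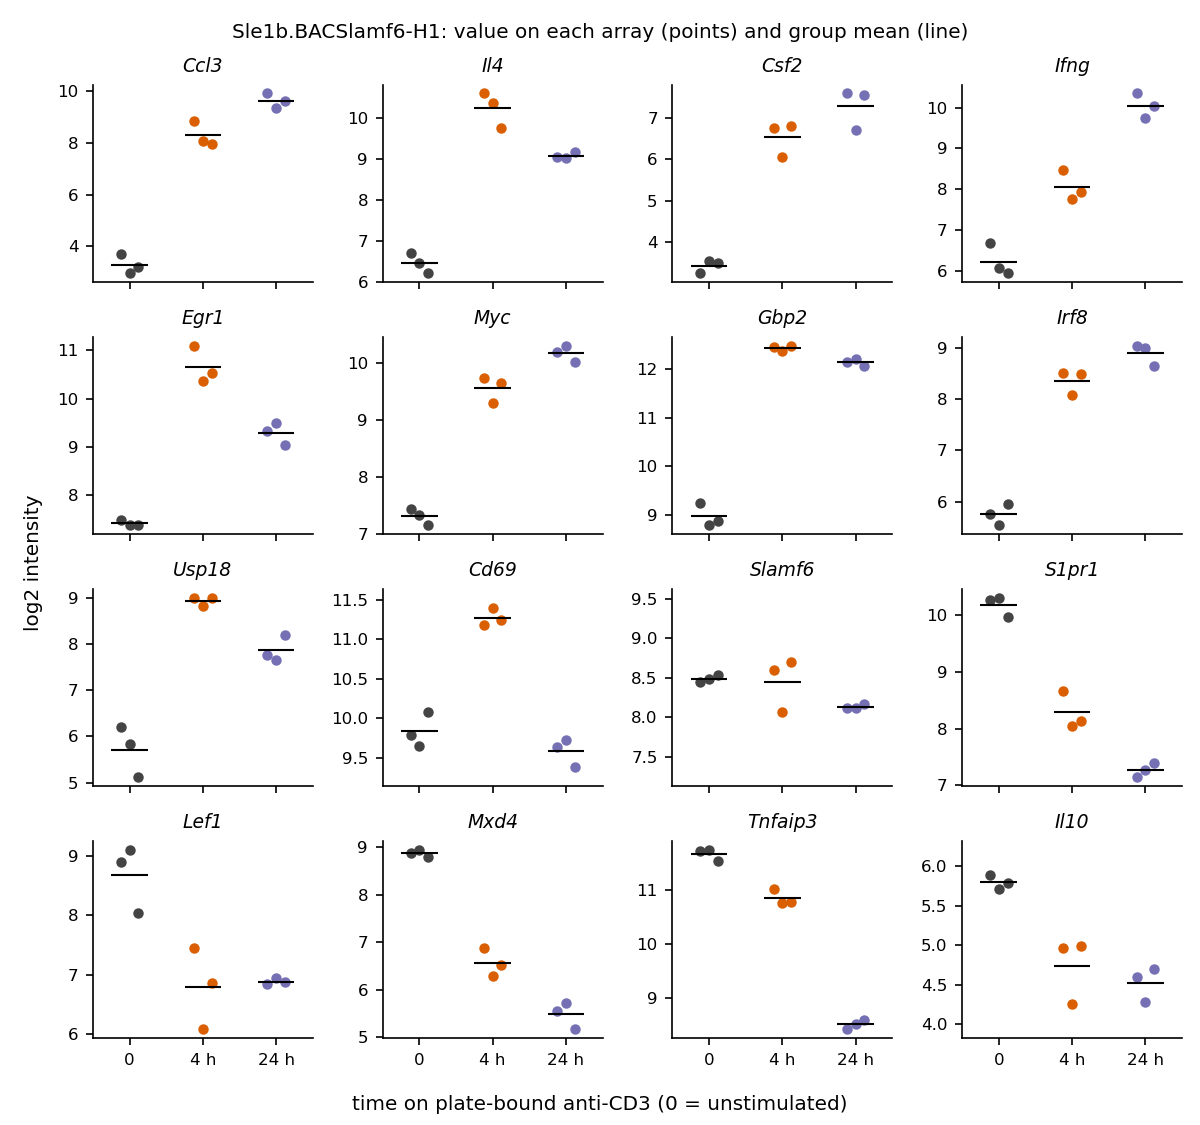
Each panel shows 1 gene in Sle1b.BACSlamf6-H1, with log2 intensity on the vertical axis, points for the 3 arrays and a line for their mean, in unstimulated cells (0), at 4 h and at 24 h of anti-CD3. Ccl3 and Ifng were higher at 24 h than at 4 h, Cd69, Egr1 and Il4 were lower, Slamf6 overlapped between unstimulated and 4 h cells, and Mxd4, S1pr1 and Tnfaip3 fell at 4 h and lay lower still at 24 h.

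Surface molecules of activation moved in both directions. Of 24 measured, 10 rose and 3 fell. Il2ra, the alpha chain of the IL-2 receptor (CD25), read 4.86, 4.91 and 4.98 and then 7.05, 6.44 and 7.28 (2.01, adjusted p = 1.47e-05). Cd69, which holds activated cells in the tissue by opposing S1PR1, read 9.79, 9.66 and 10.08 and then 11.18, 11.40 and 11.24 (1.43, adjusted p = 0.000206). Cd160, Cd200, Tnfrsf9 (4-1BB), Tfrc (transferrin receptor) and Btla rose by 1.39, 1.23, 1.16, 0.94 and 0.66, with adjusted p from 1.12e-06 to 0.003. Icam1 rose by 0.93 and Cd83 by 0.55. Both calls were close to the threshold, at an adjusted p of 0.0365 and 0.0493, and the arrays of Cd83 overlapped. Icam1 lost it without any unstimulated array or the first or the third 4 h array, and Cd83 without the first or second unstimulated or the second or the third 4 h array, with an adjusted p of up to 0.111 and 0.212.

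The 3 that fell were the TNF receptor Tnfrsf1b, the inhibitory receptor Ctla4 and the costimulatory receptor Cd27. Tnfrsf1b went from 8.70, 8.73 and 8.77 to 7.80, 7.09 and 7.5 (adjusted p = 0.00252). Ctla4 read 9.74 on each unstimulated array and 9.03, 9.19 and 9.17 at 4 h (adjusted p = 0.00706). The fall of Cd27 (adjusted p = 0.0229) was lost without the first or second unstimulated or the second or the third 4 h array, with an adjusted p of up to 0.118. Among 28 cytokine receptors, SOCS and STAT genes 6 rose and 7 fell, and 2 fell without the dim array. Cish, a feedback inhibitor that STAT5 induces, rose by 1.10 (adjusted p = 0.000125). The interferon receptor chains Ifngr2 and Ifnar1 fell, Ifngr2 from 7.70, 8.29 and 7.46 to 6.91, 6.20 and 6.52 (adjusted p = 0.000237) and Ifnar1 from 8.14, 8.01 and 7.61 to 7.34, 6.58 and 6.77 (adjusted p = 0.00177).

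Calls among immediate early factors went in both directions. Of 19 measured, 2 rose and 2 fell, against 4.22% and 6.35% of all genes, and nothing is read from these counts. After a new quantile normalization 5 were called higher, and 7 with brightness as a covariate. Egr1, a zinc finger factor downstream of ERK, read 7.5, 7.38 and 7.39 in unstimulated cells and 11.10, 10.36 and 10.53 at 4 h (3.24, SE 0.36, adjusted p = 2.32e-06). Its relative Egr2 rose by 1.26 (adjusted p = 0.0372), a call that was lost without any unstimulated array or the first or the third 4 h array, with an adjusted p of up to 0.127. The AP-1 members Fosb and Junb fell. Fosb read 5.83, 5.48 and 5.59 and then 4.07, 3.05 and 3.22 (adjusted p = 0.000274), and Junb 8.08, 8.24 and 8.0 and then 7.22, 6.63 and 7.10 (adjusted p = 0.00503). Nr4a1, a reporter gene of receptor signalling, was already at 10.73, 10.57 and 10.40 in unstimulated cells and overlapped with 11.43, 10.73 and 10.87 at 4 h. Fos (8.78, 8.59 and 8.51 against 8.60, 7.77 and 8.03) overlapped too. Nr4a2 and Fosl2 did not overlap between the groups but missed the threshold, with differences of 0.62 and -1.03 (adjusted p = 0.367 and 0.0833).

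The MYC network moved in opposite directions. Myc, which drives growth of activated T cells, read 7.44, 7.33 and 7.15 in unstimulated cells and 9.73, 9.30 and 9.65 at 4 h (2.25, adjusted p = 2.3e-06). Of the 9 measured members, it was the 1 that rose. The 3 that fell, Mxd4, Mxi1 and Mnt, encode repressors that bind the same partner MAX. Mxd4 went from 8.87, 8.95 and 8.80 to 6.87, 6.29 and 6.52 (4.97-fold lower, adjusted p = 5.49e-08). Mxi1 read 8.95, 9.03 and 8.91 and then 7.43, 7.10 and 7.36 (adjusted p = 5.95e-07), and Mnt 8.18, 8.15 and 7.89 and then 7.36, 6.72 and 6.96 (adjusted p = 0.00314). All 4 calls were kept whichever array was left out.

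Among 22 activation and lineage factors 4 rose and 2 fell. Irf8, a factor of interferon responses and effector differentiation, went from 5.77, 5.54 and 5.95 to 8.51, 8.08 and 8.49 (2.61, adjusted p = 0.000272). Irf4, whose level follows receptor strength, rose by 2.04 from 8.48, 8.09 and 7.76 to 10.47, 9.93 and 10.05 (adjusted p = 1.11e-06), and its dimmer second probe set gave 0.58 (adjusted p = 0.256). Batf, its partner at AP-1 composite sites, rose by 1.51 (adjusted p = 1.06e-05), and Tbx21, encoding the type 1 factor T-bet, by 1.93 from 4.28, 4.14 and 4.60 to 6.82, 5.60 and 6.40 (adjusted p = 0.00593). The falls of Bhlhe40 and Runx3 (adjusted p = 0.0207 and 0.0376) were lost without the first or second unstimulated or the second or the third 4 h array, with an adjusted p of up to 0.108 and 0.272. Of 16 T follicular helper genes 4 rose (Il4, Cd200, Batf and Btla) and none fell. Of 10 regulatory T cell genes 1 rose (Il2ra) and 2 fell, Ctla4 among them. These named genes are also members of other lists described here. Foxp3, the factor of regulatory T cells, overlapped between the groups (5.58, 5.51 and 5.40 against 6.43, 5.56 and 6.77).

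Negative regulators of receptor signalling split as well. Of 25 MAPK and receptor feedback genes 5 rose and 6 fell. Dusp6, a phosphatase for ERK, rose by 1.71 from 6.06, 6.13 and 6.00 to 8.06, 7.61 and 7.63 (adjusted p = 0.000201), and Rgs1, an inhibitor of G protein signalling, rose by 1.10 (adjusted p = 4.24e-06). Dusp1, a phosphatase for p38 and JNK, read 10.56, 10.56 and 10.44 and then 9.20, 8.87 and 8.92 (adjusted p = 2.13e-05). Dusp10, another such phosphatase, Rgs2, and Ubash3a, a suppressor of receptor signalling, had differences of -1.08, -0.92 and -1.25 (adjusted p from 6.98e-06 to 0.000992). Of 15 NF-kappaB genes none rose and 2 fell, where 6.35% of all genes were called lower, and nothing is read from that count. With a new quantile normalization 1 was called higher and with brightness 2. The inhibitor Tnfaip3 (A20) read 11.72, 11.75 and 11.54 and then 11.03, 10.77 and 10.79 (adjusted p = 0.000382), and its partner Tnip1 read 9.22, 9.06 and 9.04 and then 7.95, 7.15 and 7.64 (adjusted p = 7.46e-05).

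Of 16 calcium, calcineurin and NFAT genes 1 rose and 6 fell, and 3 fell without the dim array. Ppp3cc, a catalytic subunit of calcineurin, rose by 1.60 from 5.12, 5.38 and 5.36 to 7.04, 6.53 and 7.09 (adjusted p = 2.28e-07). Rcan3, of a family of calcineurin inhibitors, fell 7.87-fold, from 8.51, 8.48 and 7.99 to 5.99, 5.03 and 5.04 (adjusted p = 1.17e-05). The calcium release channel Itpr2 read 8.06, 8.14 and 7.70 and then 6.91, 5.79 and 6.61 (adjusted p = 5.31e-05). Stim1, the sensor of calcium stores, Orai2, a channel subunit, and Nfatc3 had differences of -1.17, -1.48 and -0.78 (adjusted p from 0.00565 to 0.0147). The call of Nfatc3 was lost without the second 4 h array (adjusted p = 0.0565), and that of Orai2 without that array or the first or second unstimulated one (adjusted p up to 0.114).

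The proximal machinery of the receptor moved in both directions. Of 20 CD3 chains and signalling genes 4 rose and 3 fell. The adaptor Lcp2 (SLP-76) rose by 1.52 from 8.77, 8.78 and 9.02 to 10.46, 10.26 and 10.41 (adjusted p = 5.95e-07). Rasgrp1, which links diacylglycerol to RAS, the kinase Prkcq and the zeta chain Cd247 rose by 1.10, 1.01 and 0.60 (adjusted p from 2.95e-05 to 0.000258). The mean over both probe sets of Rasgrp1 did not pass (adjusted p = 0.0827). Lat, Cd28 and Cd4 had differences of -0.72, -0.68 and -0.87 (adjusted p from 0.00242 to 0.00535), with Cd4 at 6.24, 6.48 and 6.18 and then 5.56, 5.40 and 5.33. In the fit of the 6 arrays alone the adjusted p of Cd28 was 0.0502. Cd3d and Cd3g overlapped between the groups and Cd3e did not pass (-0.25, adjusted p = 0.342), with 11.46, 11.42 and 11.48 in unstimulated cells and 11.26, 11.44 and 11.27 at 4 h for Cd3d.

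Genes of the resting, circulating T cell were the list with the lowest median. Of 23 naive and quiescence genes 14 fell and 1 rose, with a median of -0.79, and without the dim array 11 fell and none rose. S1pr1, the receptor by which T cells leave lymphoid organs, read 10.28, 10.32 and 9.98 in unstimulated cells and 8.67, 8.04 and 8.14 at 4 h (3.75-fold lower, adjusted p = 2.06e-07). Lef1, a factor of naive T cells, read 8.91, 9.11 and 8.05 and then 7.45, 6.07 and 6.86 (adjusted p = 0.000458). Tob1, an antiproliferative protein, went from 9.55, 9.45 and 9.45 to 8.53, 7.99 and 8.31 (adjusted p = 3.44e-05). Sesn1, an inhibitor of mTORC1, and Klf3, a repressor of the Krüppel family, had differences of -1.23 and -1.16 (adjusted p = 2.83e-05 and 0.00206). All 5 kept their call whichever array was left out.

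Homing receptors shifted with them, S1pr1 being in both lists. Of 14 measured, 3 rose and 6 fell, 2 without the dim array. S1pr4, a second sphingosine phosphate receptor, read 8.64, 8.49 and 8.57 and then 7.70, 7.34 and 7.40 (adjusted p = 0.000116). Gpr183 (EBI2), which guides cells to the border of T and B cell zones, rose by 1.5 from 8.30, 8.09 and 8.26 to 9.78, 9.83 and 9.54 (adjusted p = 1.82e-06). Ccr2, a receptor of inflammatory homing, rose by 1.27 on its brightest probe set (adjusted p = 0.00107). Its dimmer probe sets gave 0.53, 0.25 and 0.26 without a call, and the mean of all its probe sets gave 0.58.

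Of 26 ribosome biogenesis genes 5 rose and none fell (median 0.26). Without the first 4 h array 5 were called higher and 4 lower, after a new quantile normalization 11 and 1, and with array brightness as a covariate 10 and 1. Dkc1, the pseudouridine synthase of small nucleolar ribonucleoproteins, read 7.73, 7.84 and 7.70 and then 8.69, 8.53 and 8.66 (0.87, adjusted p = 5.54e-06), and Nop58, of the box C/D particle, rose by 1.04 (adjusted p = 0.00114). Wdr43, Nhp2 and Nolc1 rose by 0.67, 0.89 and 0.76. Nhp2 lost its call without the first or second unstimulated or the second 4 h array (adjusted p up to 0.0918), and the mean over the 3 probe sets of Nolc1 did not pass (adjusted p = 0.211). Of 15 polyamine and nucleotide genes Srm, Prps1 and Ppat rose, by 1.19, 0.57 and 0.59. Srm lost its call without any unstimulated array or the first or the third 4 h array (adjusted p up to 0.0771), and Ppat with arrays centred on their medians (adjusted p = 0.0515). By 24 h, 25 of the 26 ribosome biogenesis genes were called higher than at 4 h, against 16.9% of all genes.

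Wars, the tryptophanyl-tRNA synthetase that interferon gamma also induces, rose by 1.24 from 5.91, 5.64 and 5.69 to 7.27, 6.66 and 7.03 (adjusted p = 2.63e-05). It was 1 of 2 such enzymes that rose among 17, while 1 fell. Of 17 cholesterol genes Idi1, an isomerase of the pathway, rose by 0.91 (adjusted p = 2.13e-05) and 2 fell. Of 20 amino acid and ATF4 genes Psph, which makes serine, rose by 0.67 (adjusted p = 0.0068) and 3 fell, 1 of them without the dim array. Of 16 heat shock and chaperone genes 1 rose and 1 fell, and neither call was kept whichever array was left out. Of 18 glycolysis genes none rose and 1 fell, whereas without the dim array 1 rose and none fell, and with brightness as a covariate 3 rose and 1 fell. Of 29 cell cycle genes 1 rose and 6 fell, 3 of these without the dim array. Ccnd2, the D-type cyclin of early activation, read 9.40, 9.21 and 9.10 and then 10.77, 10.37 and 10.71 (1.38, adjusted p = 4.57e-06), while the inhibitor Cdkn1a went from 6.99, 6.87 and 6.87 to 6.08, 5.75 and 5.80 (adjusted p = 0.00174). At 24 h, 24 of the 29 were called higher than at 4 h.

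Death and survival genes rose together in part. Of 19 measured, 4 rose and 1 fell. Fas, the death receptor, read 6.80, 6.80 and 6.85 and then 8.54, 8.78 and 8.70 (1.85, adjusted p = 1.02e-07). Bcl2, which protects from mitochondrial death, rose by 1.46 from 7.36, 7.30 and 7.40 to 8.98, 8.51 and 8.95 (adjusted p = 3.34e-05). Gadd45g, an activator of stress kinases, rose by 2.02 (adjusted p = 1.18e-05). Bcl2a1a, which has near-identical paralogs, rose by 0.66, and Pmaip1 (NOXA) had a difference of -1.07 (adjusted p = 0.0129 and 0.00705). Without the first unstimulated array Pmaip1 was at an adjusted p of 0.0522, and Bcl2a1a reached up to 0.0931 without the second unstimulated or second 4 h array.

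The SLAM family, for which the strain was made, was read as a list at 4 h. Of 9 measured members and adaptors 1 rose and none fell, where 10.6% of all genes were called, and nothing is read from that count. The difference was positive in 8 of the 9, as in 9663 of all 17097 genes, with a median of 0.23 against 0.04 over all genes. Slamf6 was read by its brightest probe set at 8.45, 8.48 and 8.53 in unstimulated cells and at 8.60, 8.06 and 8.69 at 4 h. The difference of -0.04 had a 95% interval from -0.38 to 0.31 (adjusted p = 0.924), and the low value was that of the dim array, without which the difference was 0.16. A second Slamf6 probe set gave 0.46 (adjusted p = 0.194) and the remaining one lay near background. Which splice form each probe set reads is not given in the sources used here. Slamf1 (CD150) rose by 0.74 from 8.61, 8.27 and 8.22 to 9.21, 9.17 and 8.94 (adjusted p = 0.0139), a call lost without the second or the third unstimulated or the second 4 h array (adjusted p up to 0.0651). Cd84 read 7.99, 7.86 and 8.33 and then 8.53, 8.65 and 8.64, which did not pass (0.55, adjusted p = 0.0716). Sh2d1a and Ly9 did not pass either (0.34 and 0.23, adjusted p = 0.204 and 0.594).

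**Figure D4:**
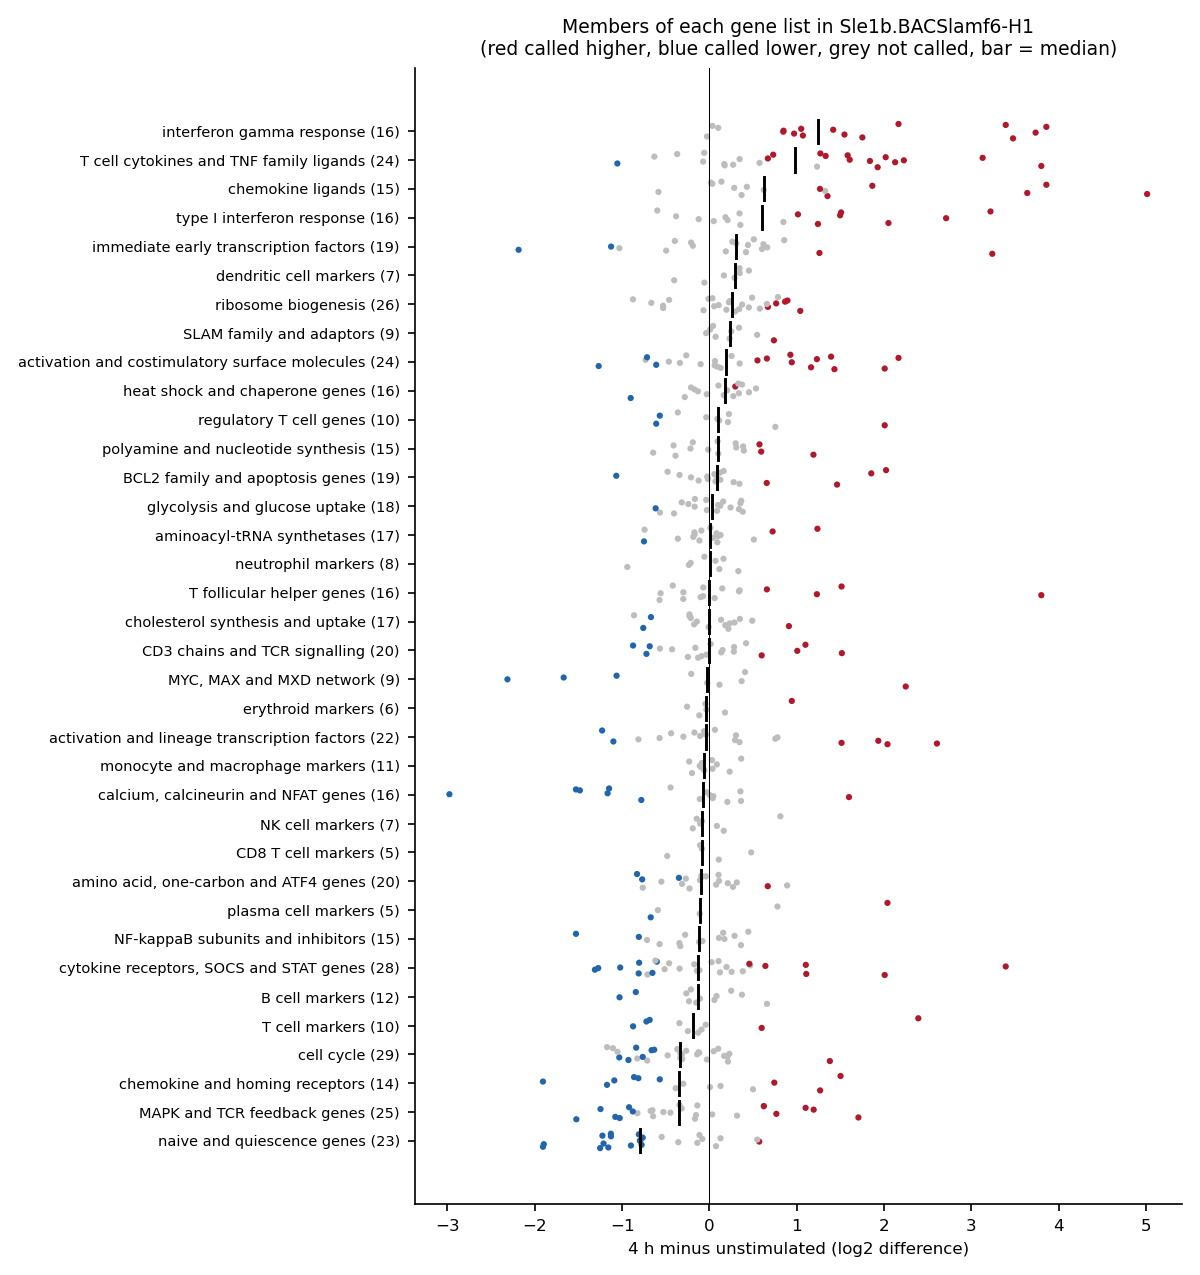
Each row is a gene list with its number of measured members in brackets, and each point a member at its log2 difference between 4 h and unstimulated Sle1b.BACSlamf6-H1 cells, red where called higher, blue where called lower and grey where not called, with a bar at the median. Interferon gamma response genes (1.24), cytokines (0.98) and chemokine ligands (0.62) had the highest medians, and naive and quiescence genes (-0.79) the lowest.

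The 15 largest rises and falls held further genes not described so far. Calhm6, a channel subunit that interferon gamma induces, read 5.60, 5.56 and 5.20 and then 9.73, 9.71 and 9.76 (4.28, SE 0.18, adjusted p = 1.77e-12). Sema7a, a membrane-bound semaphorin, went from 4.55, 4.59 and 4.41 to 8.51, 8.10 and 8.0 (3.69, adjusted p = 5.36e-08). Rragd, a GTPase that carries amino acid signals to mTORC1, went from 4.24, 4.34 and 4.19 to 7.99, 7.27 and 8.03 (3.51, adjusted p = 1.8e-09). Myo6 (a myosin), Ncoa7 and Frmd4b rose by 3.46, 3.38 and 3.24. The 3.40 of Hivep3 came from 1 of its 5 probe sets, and the other 4 lay between -0.22 and 0.55.

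The largest fall was that of Tdrp, which read 9.94, 10.03 and 9.66 and then 7.12, 6.26 and 6.45 (9.61-fold lower, SE 0.26 on the log2 scale, adjusted p = 2.13e-08). St8sia1, the ganglioside sialyltransferase, read 6.02, 6.18 and 6.10 and then 4.02, 3.0 and 3.58 (adjusted p = 1.38e-07). Its second 4 h value lay under the background of that array. Eif2ak3, the unfolded protein sensor PERK, went from 8.52, 8.59 and 8.43 to 6.51, 5.69 and 6.29 (adjusted p = 1.84e-06). Tsc22d1, a leucine zipper factor, went from 8.72, 8.87 and 8.82 to 6.82, 6.34 and 6.68 (adjusted p = 5.6e-07). Each of these 4 was lowest on the dim 4 h array. Rasgrp2, the activator of RAP1 in integrin signalling, had a difference of -2.15 (adjusted p = 0.000152), against the rise of its relative Rasgrp1. Rassf3, Cerk (ceramide kinase), Cpm, the potassium and chloride cotransporter Slc12a7, 1110032F04Rik, the RNA-binding protein Mex3b and Cyp2d22 had differences from -2.13 to -2.49. All 30 of these rises and falls kept their call in every alternative run, with an adjusted p of at most 0.0171.

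Markers of the labelled cell type and of others were read on the same arrays. The summed level of 10 T cell markers lay between 13.45 and 13.57 in unstimulated cells and between 13.44 and 13.55 at 4 h. Of these 10 markers 2 rose and 3 fell, with a median difference of -0.19. Cd4, Cd28 and Lat fell, Cd247 rose, and Trat1, a T cell receptor adaptor, rose by 2.39 (adjusted p = 2.17e-06). Of 12 B cell markers none rose and 2 fell, Blk from 5.82, 5.96 and 6.58 to 5.16, 4.94 and 5.18 and Bank1 from 4.26, 4.64 and 4.75 to 3.63, 3.65 and 3.84 (adjusted p = 0.0049 and 0.00941). Without the third unstimulated array the adjusted p of Bank1 was 0.0503, and with array weights that of Blk was 0.0622. The summed B cell markers overlapped between the groups (9.78 to 10.61 and 9.98 to 10.41). None of the 11 monocyte and macrophage, 8 neutrophil, 7 dendritic cell, 7 NK cell or 5 CD8 T cell markers was called with all arrays. With 1 array left out, 1 dendritic cell marker was called higher without the third unstimulated array and 1 CD8 T cell marker lower without the first 4 h array. Monocyte and macrophage markers summed to 9.89 to 10.15 in unstimulated cells and to 10.22 to 10.38 at 4 h, so that these ranges did not overlap, with 3 of the 11 at background in both groups. The neutrophil markers summed to 7.30 to 9.68 and 6.95 to 9.62, and the dendritic cell markers to 8.17 to 8.59 and 8.42 to 8.93. The NK cell markers (8.5 to 9.05 and 8.56 to 9.22) and the CD8 T cell markers (8.43 to 8.72 and 8.14 to 8.70) overlapped. The part of such cells in the interferon and chemokine genes was not tested. Of the plasma cell list, Irf4 rose and Xbp1 fell (adjusted p = 0.00627), and of the erythroid list Tfrc rose, genes that activated T cells use as well.

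Other motifs were counted in promoters of genes that rose and of genes that fell. The AP-1 site TGANTCA was in 11.1% of promoters of genes that rose at least 2-fold, in 6.84% of all and in 3.87% of those that fell at least 2-fold. The core TGACG of the cyclic AMP response element was in 19.3%, 25.8% and 32.7%, and the full site TGACGTCA, which contains it on both strands, in 1.17%, 2.52% and 5.06%. The MYC E-box CACGTG stood at 8.77%, 8.75% and 11.9%, the EGR site GCGTGGGCG at 0.58%, 1.02% and 1.79%, the serum response element at 1.75%, 1.51% and 1.79% and the kappaB site at 1.75%, 5.31% and 6.85%. Among genes that rose, the EGR, serum response element and kappaB shares rest on 1, 3 and 3 promoters. These shares are of 171 promoters with a rise, 336 with a fall and 13605 in all, and are given without a test.

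The later course set apart the rises that were still under way. Of the 92 genes named here that rose at 4 h, 28 were called higher and 34 lower at 24 h than at 4 h, against 16.9% and 7.82% of all genes (24.8% together). This contrast shares the 4 h arrays. Ccl1 went on from 5.05, 4.49 and 5.35 at 4 h to 8.90, 8.18 and 8.57 at 24 h (adjusted p = 7.41e-09), and Ifng, Il2 and Lta rose further by 1.99, 1.80 and 1.81. Il4, Egr1, Cd69, Usp18 and Fas were lower at 24 h than at 4 h (adjusted p from 3.65e-07 to 0.0242), as was Frmd4b, which went from 9.13, 8.86 and 9.25 to 6.70, 6.31 and 7.64. Of the 50 named genes that fell at 4 h, 18 were lower still at 24 h, 3 were higher and 29 did not pass. Rgs2 fell furthest among them, from 10.06, 10.20 and 9.76 to 6.47, 6.40 and 6.74 (adjusted p = 4.18e-12).

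The response to the same stimulus was also compared with that of the other strains. With 3 arrays a group, a lack of calls does not show that the responses were alike. Within their own arrays 697 genes were called higher (4.08%) and 507 lower (2.97%) in C57BL/6 at 4 h, 1204 in all (7.04%). In B6.Sle1b 440 were called higher (2.57%) and 533 lower (3.12%), 973 in all (5.69%). Among unstimulated and 4 h arrays, the lowest 75th percentile of intensity was on an unstimulated array in C57BL/6 (34.8) and B6.Sle1b (35.6). In Sle1b.BACSlamf6-H1 it was on the dim 4 h array (34.2), without which 525 genes were called lower there. The part of this in the counts and medians compared between strains, here and below, was not tested. No gene (0.0%) was called in limma for a difference between the response of Sle1b.BACSlamf6-H1 and that of B6.Sle1b, with 903 at an unadjusted p under 0.05, and none for the difference from C57BL/6, with 664. The smallest adjusted p against B6.Sle1b was 0.408, for the cystatin gene Stfa3, which lay at background in both groups of Sle1b.BACSlamf6-H1. Against C57BL/6 it was 0.0543, for Arhgap5. Arhgap5 read 6.47, 6.93 and 6.74 and then 7.29, 7.34 and 7.35 in Sle1b.BACSlamf6-H1 (0.62, adjusted p = 0.0075), where the difference was -0.68 in C57BL/6 and -0.01 in B6.Sle1b. Its call in Sle1b.BACSlamf6-H1 was lost without the first unstimulated array (adjusted p = 0.0667).

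Genes chosen on the arrays of the other strains mostly moved the same way in Sle1b.BACSlamf6-H1, where 9663 of all 17097 genes had a positive difference. Of 697 genes called higher in C57BL/6, 682 had a positive difference in Sle1b.BACSlamf6-H1, with a median of 0.66 against 0.79 in C57BL/6, where they were chosen. Of its 507 lower genes 493 had a negative one, with medians of -0.89 and -0.84. From B6.Sle1b, 438 of 440 higher genes (medians 0.87 and 0.94) and 522 of 533 lower genes (medians -0.77 and -0.81) kept their direction. Ccl3 rose by 5.01, 5.60 and 5.0 in Sle1b.BACSlamf6-H1, C57BL/6 and B6.Sle1b, and Il4 by 3.80, 3.92 and 3.21. The interferon gamma list had medians of 1.24, 1.4 and 1.0, and the naive and quiescence list of -0.79, -0.54 and -0.29. Slc12a7 fell in Sle1b.BACSlamf6-H1 by 2.36 and had differences of -1.39 and -1.01 in C57BL/6 and B6.Sle1b (difference of responses -0.97 and -1.35, SE 0.50 for each, adjusted p = 0.874 and 0.774). Il17a was called in Sle1b.BACSlamf6-H1 and not in C57BL/6 (0.89, adjusted p = 0.0708), and the difference of 1.24 between them (SE 0.41) did not pass (adjusted p = 0.874). Tnfsf11, called here at 1.58, had 0.64 and 0.79 in C57BL/6 and B6.Sle1b without a call, and its differences of 0.94 and 0.79 (SE 0.40 for each) did not pass either.

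**Figure D5:**
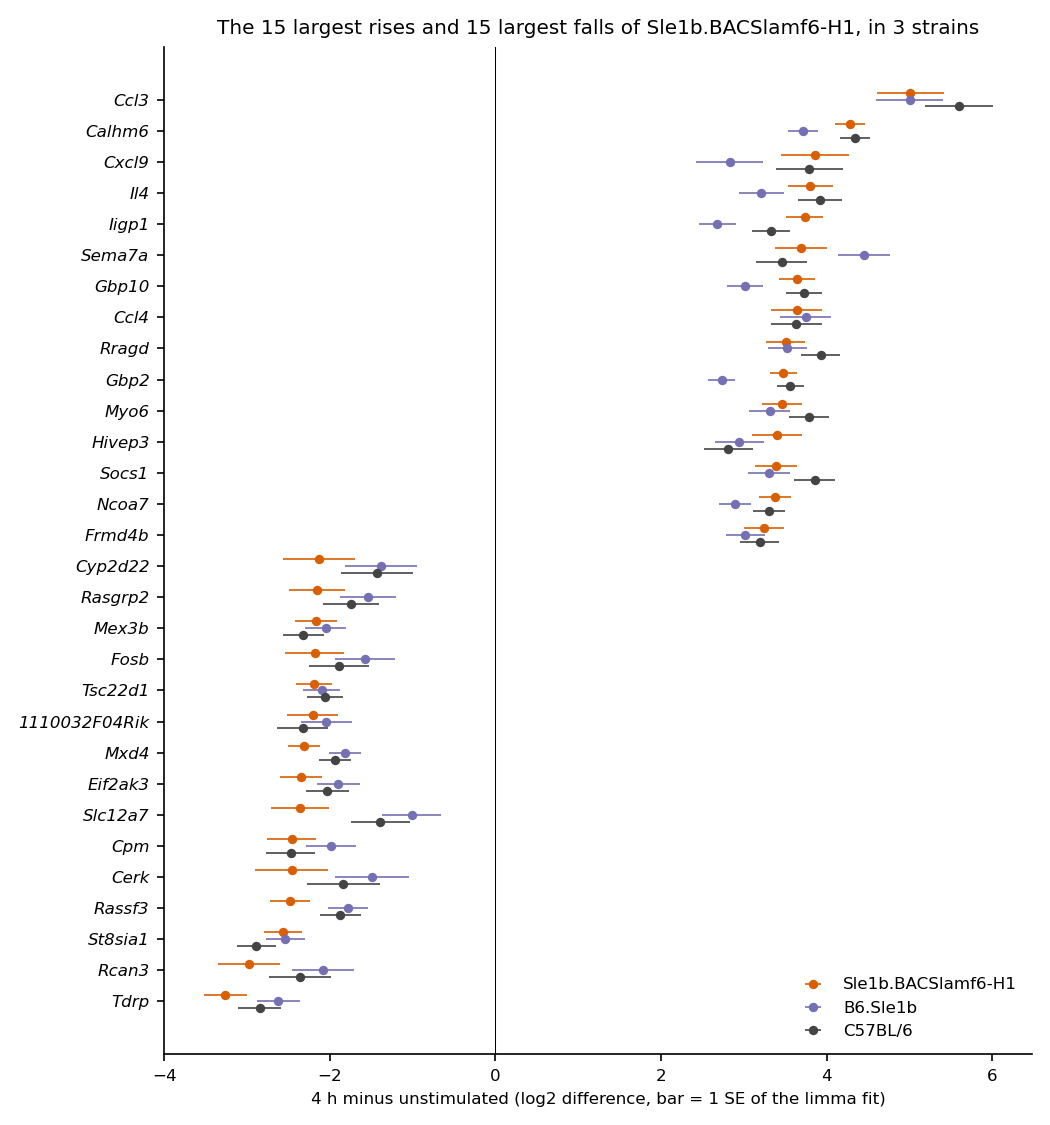
For the 15 largest rises and 15 largest falls of Sle1b.BACSlamf6-H1, points give the log2 difference between 4 h and unstimulated cells in Sle1b.BACSlamf6-H1 (orange), B6.Sle1b (purple) and C57BL/6 (dark grey), with bars of 1 SE from limma. The genes were chosen on Sle1b.BACSlamf6-H1, and all 30 had the same sign in the other strains, as in Tdrp with -3.26, -2.62 and -2.84.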

How the data were processed

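RNA of each sample was hybridised to 1 Affymetrix array of type HT MG-430 PM. The authors deposited linear intensity values of 45141 probe sets. According to the submitters' processing notes they used RMA, with no version given in the sources used here. Quantile normalization, a step of RMA, can hide a shift of all genes. Log2 was taken, with no pseudocount and no filter.

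Each of 17097 genes was represented by its brightest probe set, named through the platform annotation (28898 probe sets with 1 symbol, 551 with several and 15692 with none) and RefSeq of GRCm38.p6. Background was the 95th percentile of 23 non-specific control probe sets. A group mean at or under it gives a bound in place of a fold. A further motif is not reported here.

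All 26 arrays labelled biological entered 1 fit in limma 3.58.1 (R 4.3.3) with a mean for each of 9 groups, so that groups shared their spread, followed by contrasts, eBayes and Benjamini-Hochberg adjustment over all genes. Genes under 0.05 were called, and every adjusted p in the text comes from limma. The fit was tested on simulated data. Groups came from the titles, and whether a group's samples were separate animals is not stated. The p-values therefore measure the spread of these samples alone, and that may be technical. The number of arrays limits the precision.

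Members, gene lists and motifs were chosen with earlier results of these data known. Lists (36, with 569 of 647 listed genes measured) are described by counts and medians. Named genes are the 15 largest called rises and falls without overlap, the SLAM list, up to 6 members of each list by adjusted p, and members of the immediate early, cytokine, chemokine ligand and surface lists. Others (Gbp3, Gbp7, Igtp, Irgm1, Irgm2, Psmb8, Irf1, Ifit2, Ifih1, Cd3d, Cd3g, Stfa3 and Arhgap5) were named after their values were seen. Further settings were the arrays of the fit, a replicate block, scaling, brightness, array weights, the variance prior, probe sets, low values, a pseudocount of 16 and each array left out.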

Additional observations from a re-analysis of the deposited data

Results flagged for a closer look

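Arhgap5 went opposite ways in 2 strains. In Sle1b.BACSlamf6-H1 all 3 arrays at 4 h lay above all 3 unstimulated arrays, whereas in C57BL/6 all 3 lay below. The difference between the responses was 1.30 on the log2 scale (SE 0.21), and the limma test of that difference did not pass (adjusted p = 0.0543). With the mean of its 3 probe sets, the rise in Sle1b.BACSlamf6-H1 was not called (adjusted p = 0.154).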

How the results depend on the processing

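Of the 142 named genes called at 4 h, 113 kept their call under each of the 18 alternatives, 29 lost it under at least 1 and none changed sign. Most were named for large changes or small adjusted p on these same arrays, so that share does not hold for called genes at large. Over all called genes, 387 of 722 higher and 466 of 1086 lower kept their call whichever of the 6 arrays was left out. Leaving out 1 array moved the higher count from 722 to between 480 and 733, and the lower count from 1086 to between 525 and 1528. The higher count was 1161 with array brightness as a covariate and 211 at 2-fold or more. The lower count was 713 with the 18 unstimulated and 4 h arrays alone and 422 at 2-fold or more. Calls were 39.9% higher genes with all arrays, 54.5% without the second 4 h array and 32.4% without the first. Against C57BL/6, no gene differed in response with all arrays. Array medians, all probe sets or a pseudocount of 16 gave 1 each, and brightness gave 2. Leaving out 1 array gave 0 to 1 against either strain, with 1 gene called against C57BL/6 without the second unstimulated Sle1b.BACSlamf6-H1, the third 4 h B6.Sle1b, the first unstimulated C57BL/6 or the third 4 h C57BL/6 array, and 1 against B6.Sle1b without its second unstimulated array. The cause of these moves was not tested. Slamf6, not called in any of them, changed sign to 0.050 with a new quantile normalization, 0.075 with brightness, 0.17 with the mean of probe sets, and ranged from -0.16 to 0.16 with 1 array left out. Stfa3 changed sign to -0.0035 with brightness. Of 73 called genes with several probe sets, 24 had a difference over 1.5 times smaller in the mean of all probe sets, dim ones included. Array weights, whose estimate stopped short of convergence, lost 13 named calls, median centring 9 and the 18 arrays alone 9. With the replicate block, 819 genes were called higher and 1585 lower, and 0 for either difference of responses. Samples of the same number correlated at 0.466, -0.358 and 0.009 in their deviations over 5157 genes. The third unstimulated array correlated at 0.467 with the second 4 h array and at -0.581 with the first. Deviations from a mean of 3 arrays depend on each other, so these values cannot decide whether the numbers pair the samples. Of the 142 genes, 83 differed between 24 h and 4 h, and 72 to 101 under alternatives chosen after seeing the data. The 3 arrays a group limit the precision, and for genes at background only bounds can be given.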
